A study of Mus musculus with 2 samples.

Results

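The cells described here are the skeletal muscle progenitors of the mouse aorta-gonads-mesonephros (AGM) region at embryonic day 11 with little or no Myog. They were picked from single-cell RNA counts by the muscle transcription factor genes themselves. A droplet barcode was counted as a cell if it held 2000 or more UMIs (unique molecular identifiers, each standing for 1 captured RNA molecule) and under 10% of them from mitochondrial genes. A cell was a member if its UMIs of Pax7, Myf5 and Myod1 summed to 2 or more, those of Myog and Mymx to 1 or fewer, and it held none of Sox10. This gave 295 members among 16418 cells, 93 of 8253 in the library of PDGFRB +/+ (WT) embryos and 202 of 8165 in that of PDGFRB -/- (KO) embryos.

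Whole AGMs were dissected, dissociated with collagenase and run without sorting on the 10x Chromium Controller, loaded to recover 7000 cells. There was 1 library per genotype, so no test between genotypes was possible, and no p-value is given. The KO embryos lack PDGFRβ, a receptor of mural and mesenchymal cells, in every cell of the body, from a line kept as heterozygotes on a C57BL/6J background, so a value in the members need not come from the gene's loss within them. The labels do not give the number of embryos per library. The WT library held 179743201 UMIs and the KO library 174597654 UMIs over all barcodes, and the median member held 26473 UMIs in WT and 19994 in KO.

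Skeletal muscle of the trunk comes from the somites, the paired blocks of mesoderm that lie beside the neural tube. Cells of the dermomyotome, the upper layer of the somite, carry Pax3 and Pax7, take on the muscle determination factors Myf5 and Myod1, and then switch on Myog and the fusion gene Mymx as they leave the cell cycle and build contractile fibres. Notch signalling is known to hold such progenitors back from differentiation, and the developing myotome is a known source of PDGF-A, which signals through PDGFRα on neighbouring mesenchyme.

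The 4 genes taken to mark these cells lie on 4 chromosomes of GRCm38. Pax7 (ENSMUSG00000028736) spans chr4:139737062-139833528 on the minus strand, Myf5 (ENSMUSG00000000435) chr10:107482908-107486134 on the minus strand and Myod1 (ENSMUSG00000009471) chr7:46376474-46379099 on the plus strand. Msc (ENSMUSG00000025930), which encodes musculin, a basic helix-loop-helix factor of muscle precursors, spans chr1:14753346-14755992 on the minus strand. Because the first 3 genes chose the cells, their levels are given as a description. Under the same rule 18 WT members (19.4%) and 47 KO members (23.3%) held 1 UMI of Myog, and 1 and 5 held 1 of Mymx. Pax7 had 61.7 CPM (UMIs of a gene per 1000000 UMIs of the summed members) in WT and 77.3 CPM in KO. Myf5 had 32.9 CPM in WT and 45.0 CPM in KO, and Myod1 50.4 CPM in WT and 70.6 CPM in KO. The UMIs of the 3 genes summed to a median of 4 per member in both libraries, with a highest value of 16 in WT and 14 in KO. Of the members, 26 in WT and 51 in KO sat at the threshold of 2 UMIs. Just outside it, 60 WT cells and 141 KO cells held 1 such UMI, and a further 11 WT cells and 23 KO cells met the rest of the rule but held 2 UMIs of Myog and Mymx.

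Msc, which the rule did not use, was high in the members, as the label of the cells has it. It stood at 51.1 CPM (95% Poisson interval 43.2 to 60.0) in the WT members and at 120.1 CPM (110.7 to 130.1) in the KO members, against 2.63 CPM in all other WT cells and 3.03 CPM in all other KO cells. The intervals here and below cover counting error only and leave out differences between cells and between embryos. A UMI of Msc was found in 45.2% of WT members (exact binomial 95% interval 34.8 to 55.8%) and in 62.9% of KO members (55.8 to 69.5%). In red blood cells, taken as cells with 30% or more globin UMIs, which should lack the gene, the share was 0.277% in WT and 0.935% in KO, at median depths of 16528 and 19517 UMIs. The cells with 1 UMI of the 3 rule genes had Msc at 12.4 and 22.8 CPM in WT and KO, below the members in both libraries.

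Genes of other cell types were also counted in the members. Sclerotome genes, which mark the neighbouring cartilage-forming part of the somite, summed to 394 CPM in WT members and 459 CPM in KO members, against 370 and 593 CPM in other cells, led by Col2a1 at 205 and 268 CPM, with Nkx3-2 at 0 in WT, and 27 WT and 45 KO members held 10 or more UMIs of them. The 5 white blood cell genes summed to 110.1 CPM in WT members, led by Fcer1g, but to 1.19 CPM in KO members, against 110.5 and 97.3 CPM in other cells, and in KO members Ptprc, Spi1 and Csf1r were at 0. The WT signal lay in few barcodes, as 3 WT members and 0 KO members held 10 or more such UMIs. Endothelial genes were low, at 3.77 and 5.35 CPM in WT and KO members against 76.0 and 86.2 CPM in other cells, and Tek was at 0 in WT and Cdh5 at 0 in KO. Globin made up a median 0.029% of a member's UMIs in WT and 0.014% in KO, with 1 WT and 2 KO members at 10% or more. Smooth muscle genes, led by Acta2, summed to 499 and 399 CPM in members, below the 904 and 607 CPM of other cells. Tagln, at 135.8 and 52.9 CPM, and Actg2, at 12.7 and 3.37 CPM, were 2-fold or more lower in KO, where all genes gave 1.63%. A single WT member held 697 smooth muscle UMIs, against at most 207 in a KO member, so 1 barcode weighs heavily in the WT sum. Its part in the values of Tagln and Actg2 was not tested. Members with 10 or more such UMIs numbered 24 in WT and 74 in KO. Lateral mesenchyme genes, led by Prrx1, summed to 204.8 and 219.2 CPM, against 432 and 431 CPM in other cells, tendon and dermis genes, led by Ebf2, to 106.0 and 102.1 CPM against 93.9 and 141.2 CPM, and neural crest genes, led by Erbb3, to 61.7 and 66.6 CPM against 54.8 and 55.6 CPM, with Foxd3 at 0 in both. Erbb3 was itself among the genes highest in the members (below), so this sum is no measure of neural crest cells here. Neural genes summed to 43.2 CPM in WT members, led by Tubb3, and to 6.54 CPM in KO, with Sox1, Pax6, Olig2 and Neurog2 at 0 in both. The neural signal also lay in few barcodes, as 2 WT members and 1 KO member held 10 or more such UMIs. The highest WT member held 73 of them. Epithelial genes summed to 24.4 and 19.2 CPM, and cardiac genes to 2.74 and 1.98 CPM. The part of these cell types in the results below was not tested beyond the left-out cells given there. Doublets were kept. Of the barcodes, 20 were cells in both libraries, 1 of them a WT member, and no barcode was a member in both.

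Members were a larger share of the KO library. They made up 1.13% of WT cells (exact binomial 95% interval 0.910 to 1.38%) and 2.47% of KO cells (2.15 to 2.83%), or 1.13 (0.77 to 1.505) as the log2 of KO over WT. The cells one step on, with 2 or more UMIs of Myog and Mymx, differed alike, with 152 cells (1.84%) in WT and 330 cells (4.04%) in KO, a log2 ratio of 1.13 (0.85 to 1.42). Thinning every cell to 5000 UMIs before applying the rule, with less deep cells left out, raised the log2 ratio for the members to 1.95. Thinning to 2000 UMIs before the rule left that ratio within its interval of 0.77 to 1.505. The share of red blood cells differed between the libraries in the other direction, 8.75% in WT and 2.62% in KO, and the part of dissection, embryo and genotype in these shares cannot be told apart with 1 library each.

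The members stood out from all other cells by a set of genes that were high in both libraries, 7 of which were higher still in the Myog and Mymx cells of each. By the smaller of the 2 log2 ratios of members over other cells, the 15 leading genes were Pax7, Msc, Islr2, Pax3, Fitm1, Mrln, Npepl1, Rapsn, Pdgfa, C1qtnf3, Tppp3, Cdh15, En1, Itm2a and Erbb3. Since the rule chose the cells by genes that go together with these, the ranking describes the cells and tests nothing. Pax3, the dermomyotome partner of Pax7, had 92.6 CPM in WT members and 76.5 CPM in KO members, against 2.57 and 4.18 CPM in other cells. En1, a homeobox gene of the central dermomyotome, had 126.6 CPM in WT and 101.9 CPM in KO members against 9.55 and 19.1 CPM. Islr2, a membrane protein with leucine-rich repeats, stood at 41.5 and 41.0 CPM in WT and KO members against 1.29 and 2.20 CPM.

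Of the 15 leading genes, 4 are known from later muscle. Even so, 9 of 19 measured differentiation genes in WT and 8 in KO were 2-fold or more lower in members than in other cells. Mylpf, for example, stood at -2.93 in WT and -2.35 in KO on the log2 scale. Those other cells include the Myog and Mymx cells, where the whole list summed to 24588 CPM in WT and 30407 CPM in KO. In members it summed to 4109 and 5803 CPM. The part of the Myog and Mymx cells in these ratios was not tested. Rapsn, which encodes rapsyn, the anchor of the acetylcholine receptor at the nerve-muscle synapse, had 37.4 CPM in WT members and 43.0 CPM in KO members. Mrln, encoding the calcium pump inhibitor myoregulin, had 82.0 and 112.2 CPM, and Fitm1, a lipid droplet gene of muscle, 56.6 and 99.9 CPM. Cdh15, which encodes M-cadherin, had 44.9 and 62.6 CPM. All 4 of these, and C1qtnf3, Tppp3 and Erbb3, were higher still in the Myog and Mymx cells of the same library, where Cdh15 reached 128.9 CPM in WT and 160.2 CPM in KO. Islr2, Pax3, Npepl1, En1 and Itm2a were lower in those cells than in members in both libraries, with Pax3 at 25.2 and 19.4 CPM in WT and KO. Pax7 was lower there too, but its UMIs helped choose the members and not those cells, so its order shows nothing. Msc and Pdgfa differed between the libraries in this respect. The level of Msc in the Myog and Mymx cells of WT, 51.2 CPM, was that of the members, whereas in KO it was 27.3 CPM against 120.1 CPM. Pdgfa had 149.3 CPM in the Myog and Mymx cells of WT against 128.3 CPM in members, but 172.8 against 240.2 CPM in KO.

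**Figure D1:**
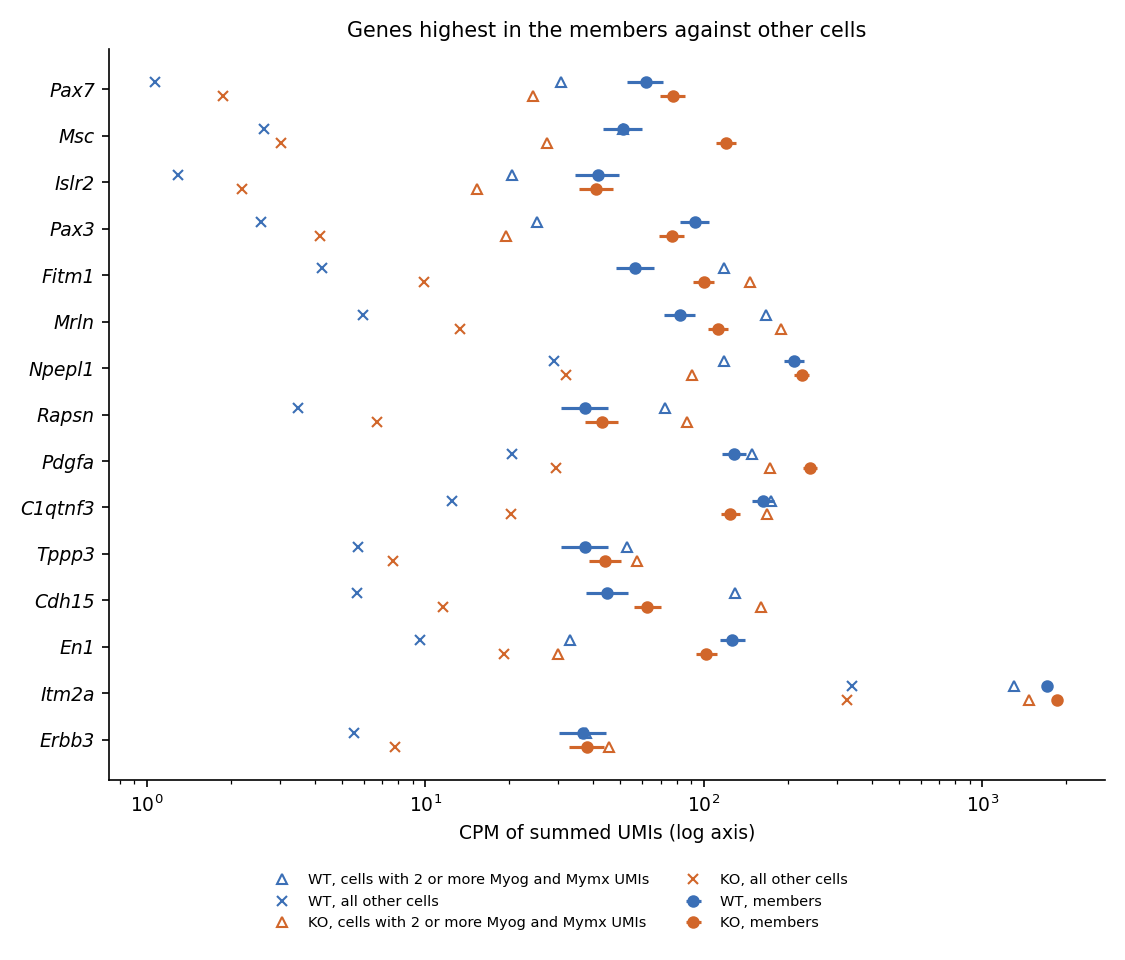
Summed level (CPM, log axis) of the 15 genes highest in the members, in members (filled circles, with exact Poisson 95% intervals), in cells with 2 or more Myog and Mymx UMIs (open triangles) and in all other cells (crosses, a group that includes the triangles' cells), for WT (blue) and KO (orange). Every gene lies to the right of its crosses, and Cdh15, Rapsn, Mrln and Fitm1 lie left of their triangles while Pax3 and En1 lie right of them. Pax7, which helped choose the members, also lies right of its triangles.

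The start sites of these genes were searched for E-boxes, the sequence CANNTG that factors such as MyoD, Myf5 and musculin can bind. RefSeq promoter entries on GRCm38.p6 matched 10 of the 15 genes, with 13 start sites. Within the 250 bases before the start, CANNTG on either strand was found at 9 of the 13 (69.2%), against 66.2% of 32851 promoters of the same length, and by gene at 8 of the 10. A pair of the Islr2 windows overlap and share 1 match, so the 13 are not independent. The inner form CAGCTG, a subset of CANNTG, was found at 1 of the 13 (7.69%), against 13% of all. So the leading genes held these letters about as often as promoters at large. The 2 promoters below are shown because Fitm1 was the one with CAGCTG and Cdh15 had the most CANNTG matches, 3, with the matches in capitals. They lie at chr14:55575424-55575673 for Fitm1 and chr8:122848124-122848373 for Cdh15, both on the plus strand.
Fitm1: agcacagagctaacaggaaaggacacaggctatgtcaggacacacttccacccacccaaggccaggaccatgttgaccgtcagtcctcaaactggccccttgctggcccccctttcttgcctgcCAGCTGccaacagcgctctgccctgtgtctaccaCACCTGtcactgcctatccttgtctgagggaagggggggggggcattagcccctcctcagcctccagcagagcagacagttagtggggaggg
Cdh15: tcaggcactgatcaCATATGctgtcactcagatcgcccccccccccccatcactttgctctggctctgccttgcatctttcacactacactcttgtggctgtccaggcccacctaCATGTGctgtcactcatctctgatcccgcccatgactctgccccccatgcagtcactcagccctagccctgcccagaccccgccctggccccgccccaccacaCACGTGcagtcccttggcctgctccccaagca

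The members were also split by the combination of Pax7, Myf5 and Myod1 detected in a cell. The same UMIs chose the members, so the levels of other genes in these classes are a description. By that combination WT split into 19 cells with Pax7 alone, 25 with Pax7 and Myf5, 5 with Myf5 alone, 31 with Myod1 and Pax7, and 13 with Myod1 without Pax7, and KO into 19, 42, 8, 95 and 38 cells. At a few UMIs per cell a gene can be missed, so a class without a gene means that none of its UMIs was captured. The median depth of the classes ran from 17726 to 35634 UMIs in WT and from 16112 to 22328 UMIs in KO. After thinning every cell to 2000 UMIs the class ratios of Msc, Pdgfa and En1 given next kept their sign. The intervals of all 3 in WT and of En1 in KO then held 0. The members and classes were set before thinning, so it cannot show how missed UMIs of the 3 genes affected the classes. The classes with Myf5 alone are too small to rank.

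Msc and Pdgfa were highest in cells with Pax7 and Myf5 in each library. Msc there had 115.3 CPM in WT (90.5 to 144.8) and 231 CPM in KO (202 to 262), with a UMI in 92.0% and 92.9% of the cells. In cells with Myod1 but no Pax7 it had 13.0 CPM in WT (4.2 to 30.3) and 75.2 CPM in KO (57.1 to 97.2), a log2 ratio between the 2 classes of 3.15 (1.86 to 4.81) in WT and 1.62 (1.20 to 2.06) in KO. Pdgfa, the ligand of PDGFRα, had 259 CPM in WT and 328 CPM in KO in cells with Pax7 and Myf5, and 52.0 CPM in WT and 198 CPM in KO in those with Myod1 without Pax7, log2 ratios of 2.31 (1.64 to 3.06) and 0.73 (0.45 to 1.01). Restricting the members to cells with 2 or more of the 3 rule genes detected, an alternative chosen after seeing the data, took the KO ratio of Pdgfa to -0.06, so its KO order rests on cells with 1 of the genes detected, and that of Msc to 0.62, whereas with mitochondrial UMIs under 5% they were 2.16 and 2.78. Itga4, the integrin α4 chain carried by migrating precursors, followed the same order in KO, where it had 145.9 CPM in cells with Pax7 and Myf5 and 54.4 CPM in cells with Myod1 without Pax7. In WT those classes had 77.9 CPM (57.8 to 102.7) and 52.0 CPM (31.8 to 80.3) of Itga4, with intervals that overlapped.

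En1 and Hoxc8 ran the other way in WT. En1 had 59.2 CPM (41.9 to 81.3) in WT cells with Pax7 and Myf5 and 208 CPM (164.9 to 259) in those with Myod1 without Pax7, a log2 ratio of -1.81 (-2.41 to -1.24). It came to -0.61 (-1.79 to 0.53) without members holding markers of other types and to -0.62 (-2.84 to 1.71) after thinning, both with intervals that held 0. In KO the same comparison gave 110.4 and 68.7 CPM, a log2 ratio of 0.68 (0.20 to 1.18), and the difference between the libraries was not tested. Hoxc8 had 379 CPM in WT cells with Pax7 and Myf5 and 645 CPM in those with Myod1 without Pax7, and 194.2 and 347 CPM in KO, lower in the first class in both libraries.

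**Figure D2:**
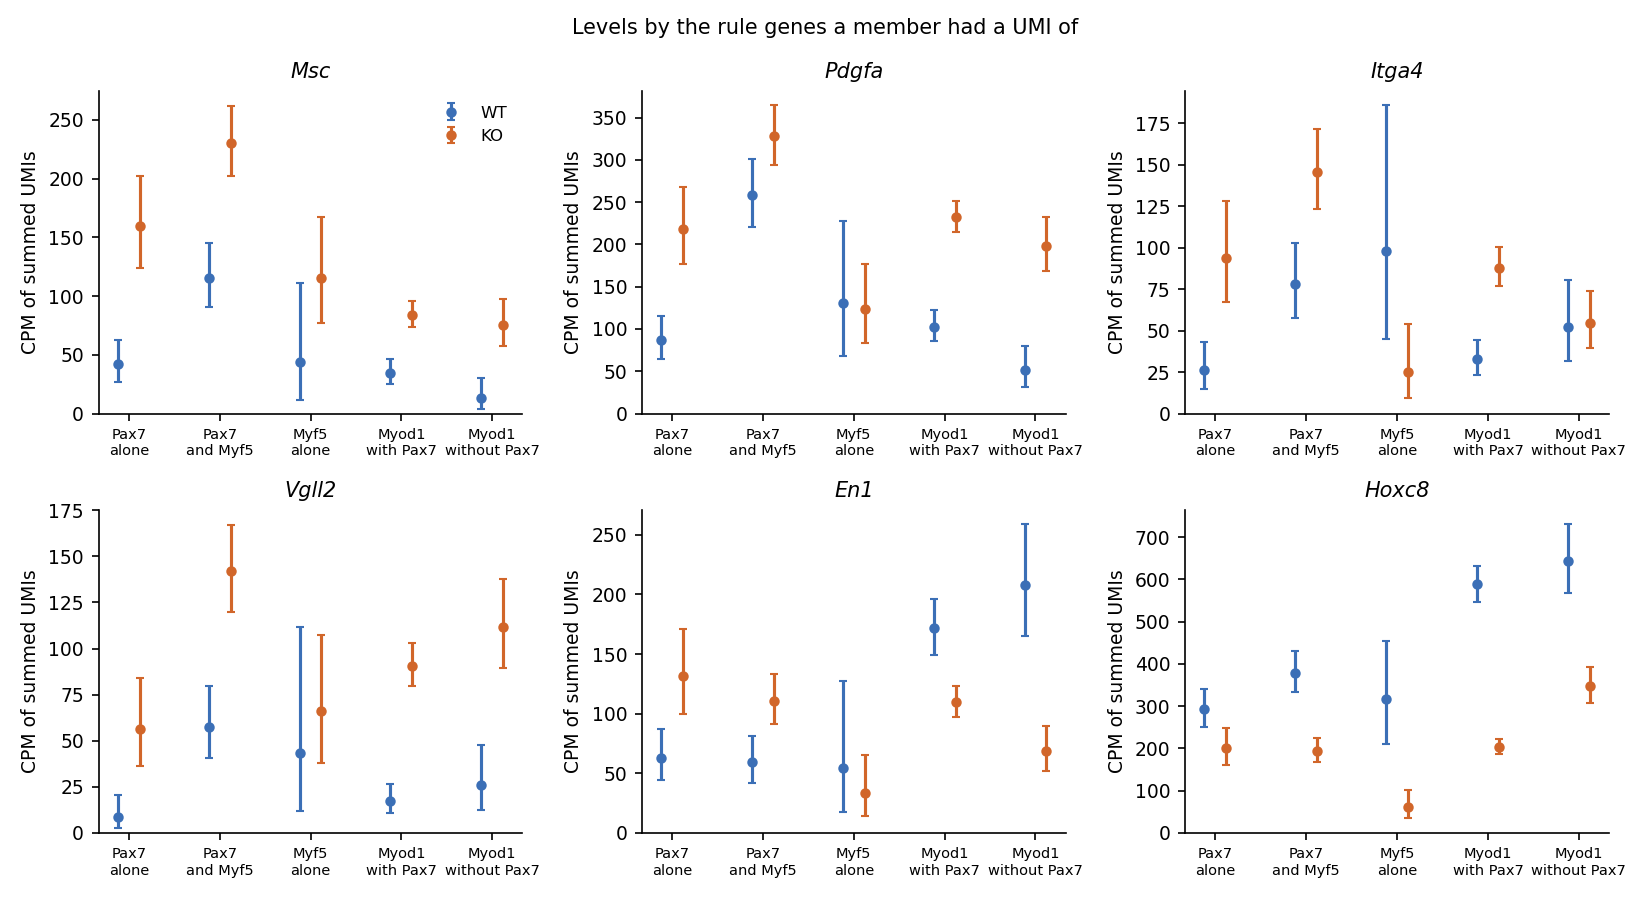
Summed level (CPM) of 6 genes in members split by which of Pax7, Myf5 and Myod1 had a UMI, for WT (blue) and KO (orange), with exact Poisson 95% intervals. Msc and Pdgfa peak in the class with Pax7 and Myf5 in both libraries, and the WT points of En1 and Hoxc8 rise to 208 and 645 CPM in the class with Myod1 without Pax7.

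Msc and En1 were not found in the same cells throughout, and splitting the members by these genes, a split chosen after their values were seen, gave groups that differed in several genes. Of the WT members, 17 had Msc but no En1, 33 had En1 but no Msc, 25 had both and 18 neither, and of the KO members 44, 47, 83 and 28. Cells with Msc alone held more Pdgfa than cells with En1 alone, 215 against 60.0 CPM in WT and 285 against 161.1 CPM in KO. Itga4 stood at 101.4 against 23.7 CPM in WT and 163.8 against 40.1 CPM in KO. Fgfr4, the FGF receptor of muscle progenitors, stood at 26.4 against 4.74 CPM and 31.7 against 10.4 CPM. Zic1, a zinc finger gene of the dorsal somite, did not keep 1 order, at 42.6 against 68.7 CPM in WT and 146.4 against 101.9 CPM in KO.

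Pax3 and Dmrt2 were higher in the cells with En1 alone than in those with Msc alone. Pax3 had 28.4 CPM in WT cells with Msc alone and 98.7 CPM in those with En1 alone, and 52.2 and 109.7 CPM in KO. Myf5 and Myod1 chose the members, so their levels in these groups are left out. Dmrt2, a dermomyotome factor upstream of Myf5, had no UMI in WT cells with Msc alone, where the interval reached up to 7.48 CPM, and 30.8 CPM in those with En1 alone, and in KO 1.02 and 25.3 CPM. The median depth of the cells with Msc alone was 19646 UMIs in WT, below the 35634 UMIs of those with En1 alone, but in KO the order was reversed, at 19558 and 16949 UMIs.

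Between the genotypes, most genes of the members lay close together. Of 9197 genes with 50 or more UMIs in the members of both libraries together, 119 (1.29%) were 2-fold or more higher in KO and 150 (1.63%) 2-fold or more lower, and the median log2 ratio was 0.005. The counts were 16 and 35 after thinning every cell to 2000 UMIs, and 58 genes were lower without members holding markers of other types. The limit of 50 UMIs was kept in both, so these counts are out of fewer genes. They cannot be set against the 119 and 150 above. Among all other cells the shares were 2.55% and 2.61% of 16069 genes, and among the Myog and Mymx cells 0.863% and 1.2% of 10192 genes. As there is 1 library each, these counts describe these libraries and carry no error rate.

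Several of the largest differences were not particular to the members. Xist had 846 CPM in WT and 0.40 CPM in KO, while the Y-linked genes Ddx3y, Eif2s3y and Kdm5d had 55.3, 50.3 and 21.2 CPM in KO and no UMI in WT, at least 4.37 on the log2 scale higher with WT set at the floor of 3 UMIs per library. Uty had 1 UMI in WT and 19.6 CPM in KO. Thus the WT members carried the transcripts of females and the KO members those of males, and sex, library and genotype cannot be told apart. Gm47283 went the same way, with no UMI in WT and 38.1 CPM in KO. The log2 ratio of KO over WT was -5.65 in members and -5.15 in other cells for Hist1h2ap, -4.27 and -4.36 for Gm10076, and 3.02 and 2.23 for AY036118. Near-identical copies exist for histone genes and predicted genes of this kind, and their counts are uncertain.

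A second group of low genes was found in few cells. C1qb, Cx3cr1, Fcer1g and Stab1, genes of macrophages, had log2 ratios of -7.95, -6.65, -5.82 and -4.58, and in WT each of C1qb, Cx3cr1 and Stab1 was found in 5.38% of the members. Without the members that held 10 or more white blood cell UMIs or 10% or more globin, an alternative chosen after seeing the data, Stab1, which the filter did not use, came to -0.10 and Mt1, a metallothionein at -4.14, to 1.56 with an interval that held 0. Tubb3 and Rtn1, both known from neurons, had -4.27 and -3.98, with a UMI in 12.9% and 11.8% of WT members and in 3.47% of KO members for each. The other genes of the top 10 higher in KO were Cck, Acan, Tex15 and Crym, at log2 ratios of 3.43 (1.81 to 5.75), 3.27 (1.64 to 5.59), 2.99 (1.55 to 4.92) and 2.41 (1.08 to 4.10). Each of them had 5 or fewer UMIs in WT.

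Among muscle genes, Msc, Vgll2, Pdgfa and Itga4 were higher in the KO members. Msc, at 51.1 and 120.1 CPM, had a log2 ratio of 1.23 (0.97 to 1.501) and was higher in KO in each of the 5 classes, with an interval above 0 in all but the cells with Myf5 alone. The ratio was 0.59 (0.21 to 0.99) without members holding markers of other types and 1.92 (1.43 to 2.44) with mitochondrial UMIs under 5%. Vgll2, a cofactor of TEAD factors in skeletal muscle, had in WT 26.4 CPM (20.8 to 33.01) and in KO 100.1 CPM (91.5 to 109.2), a log2 ratio of 1.92 (1.57 to 2.29), with a UMI in 41.9% of WT and 66.8% of KO members. Pdgfa had in WT 128.3 CPM (115.6 to 142.0) and in KO 240.2 CPM (226.9 to 254), a log2 ratio of 0.90 (0.74 to 1.08), and Itga4 46.0 and 92.0 CPM, a log2 ratio of 1.00 (0.72 to 1.29) that came to 1.78 without members holding markers of other types. The interval of the ratio lay above 0 for all 4, as it did for 1057 of the 9193 measured genes other than the rule genes, with 1111 below 0. In all other cells Vgll2 was also higher in KO, by 1.63, and Pdgfa by 0.53, whereas Msc and Itga4 differed by 0.20 and 0.19. Those cells include the Myog and Mymx cells, a larger share of the KO library. Within the Myog and Mymx cells the log2 ratios were 0.67 for Vgll2, 0.21 for Pdgfa, -0.91 for Msc and 0.41 for Itga4. The part of this cell mix in the values of all other cells was not tested.

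The receptors behaved differently from the ligand. Pdgfrb, the gene disrupted in KO, had 24.7 CPM in WT members and 3.96 CPM in KO members, a log2 ratio of -2.64 (-3.43 to -1.91) that was -2.59 in other cells. A transcript was still counted in 8.42% of KO members against 39.8% of WT members. A 3′ tag need not lie in the altered part of the gene, but the source of these KO UMIs was not tested. Pdgfra, the receptor that PDGF-A binds, had 89.9 CPM in WT and 58.5 CPM in KO, a log2 ratio of -0.62 (-0.87 to -0.37), and -0.64 in other cells. Of the remaining ligands, Pdgfc had 68.6 and 83.8 CPM, while Pdgfb and Pdgfd had at most 3.37 CPM in either library.

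Of 24 muscle regulators listed, 20 were measured at 50 or more UMIs, with a median of 0.12 for the log2 of KO over WT. Their median over other cells was 1.02 in WT and 1.06 in KO, and 10 of the 20 were 2-fold or more higher in members than in other cells in each library, where all genes gave 1.87% and 1.52%. Between genotypes 2 were past 2-fold in each direction, against 1.29% higher and 1.63% lower over all genes. Six2, a homeobox gene of mesenchyme, had 7.20 CPM in WT and 19.8 CPM in KO, and Eya2, a transcriptional cofactor, 8.23 and 16.6 CPM. Dmrt2 had 33.6 CPM in WT and 15.9 CPM in KO, a log2 ratio of -1.08 (-1.53 to -0.64), and Sim1, a dermomyotome marker, 11.3 and 5.55 CPM. Tcf15, which encodes paraxis, a factor of somite epithelium, had 90.2 and 52.9 CPM, a log2 ratio of -0.77 (-1.02 to -0.52). Gas1, which encodes a membrane protein linked to growth arrest, was close in both, at 309 and 342 CPM. Pax3 and En1 had log2 ratios of -0.28 and -0.31, which came to 0.41 and 0.66 once members with 2 or more UMIs of endothelial, white blood, neural crest or epithelial markers were left out, a filter that kept 40 WT and 95 KO members and counts Erbb3 among its markers. Of 20 muscle surface genes, 16 were measured, with a median of 0.24 between genotypes, and medians over other cells of 0.61 in WT and 0.41 in KO, which came to 0.16 and -0.26 without members holding markers of other types and to 0.23 and -0.0696 at 200 or more UMIs, but to 1.47 and 0.96 with 3 or more rule UMIs, 1.42 and 1.00 with 2 rule genes and 2.05 and 2.49 after thinning to 2000 UMIs. Itga4 was the one past 2-fold higher in KO, and Cdh4, which encodes R-cadherin, the one past 2-fold lower, at 37.7 and 17.2 CPM, where all genes gave 1.29% and 1.63%.

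Most differentiation and contractile genes had higher summed levels in the KO members. Of 37 genes listed, 19 were measured, with a median log2 ratio of 0.58. It came to 0.38 with mitochondrial UMIs under 5% and to 1.54 as a mean over single cells. Of the 19, 18 had more in KO, 15 with an interval above 0 and 8 by 2-fold or more. Of all 9193 measured genes 4660 had more, 1057 of them with an interval above 0. Over all genes of the members 1.29% were 2-fold or more higher. The same list had a median of 1.03 in all other cells and 0.31 in the Myog and Mymx cells. All other cells include the Myog and Mymx cells, which were 1.84% of WT and 4.04% of KO cells. The part of this mix in the median of 1.03 was not tested. Tnnt1, the slow skeletal troponin T, had 475 CPM in WT and 705 CPM in KO, a log2 ratio of 0.57 (0.48 to 0.66). Cdkn1c, which encodes the cell cycle inhibitor p57, was among the most abundant, at 1964 and 2820.2 CPM, and was present in every member of both libraries. The fibre genes were low but apart: Actc1, the cardiac α-actin that embryonic skeletal muscle also uses, had 26.8 CPM in WT and 68.6 CPM in KO, Mylpf, a fast myosin light chain, 10.98 and 40.0 CPM, and Acta1, skeletal α-actin, 3.77 and 20.02 CPM. For these genes the share of members with a UMI moved little beside the levels, from 29.0% in WT to 25.7% in KO for Mylpf, 10.8% to 12.4% for Acta1 and 30.1% to 38.1% for Actc1. It moved more for Neb, from 10.8% to 24.8%, and Tnnt2, from 7.53% to 17.8%, at log2 ratios of 2.22 and 2.21. Myog itself was limited by the rule to the same UMIs in members that were less deep in KO, and stood at 6.17 and 9.31 CPM in WT and KO. Against other cells, which include the Myog and Mymx cells, the list had a median of 0.14 in WT and -0.53 in KO. The KO median lay between -1.003 and 0.70 under the alternatives tried. Of the 19, 9 in WT and 8 in KO were 2-fold or more lower than in other cells, as were 2.28% and 2.61% of all genes, among them Acta1 at -3.47 in WT and -2.10 in KO, while Tnnt1, Vgll2 and Rapsn were more than 4-fold higher.

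**Figure D3:**
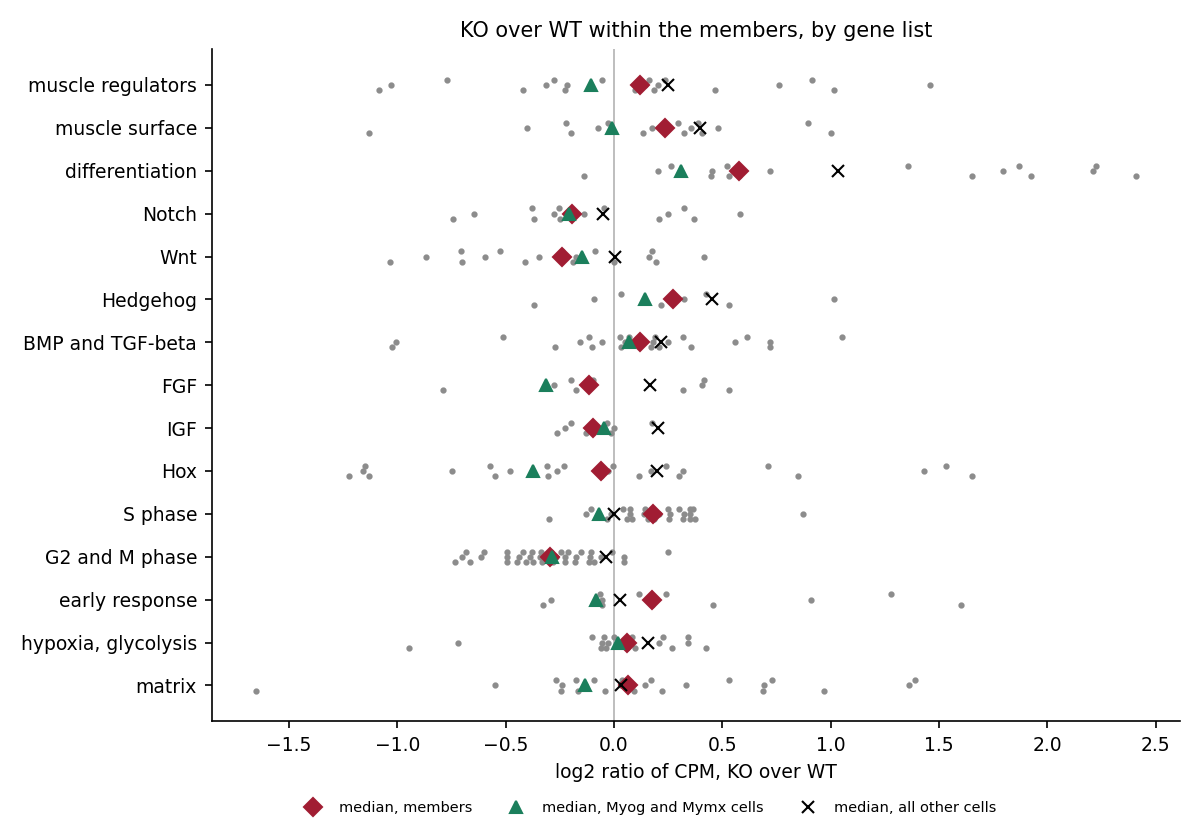
Log2 ratio of CPM, KO over WT, of each measured gene (grey points) of 15 gene lists within the members, with the list's median in members (red diamonds), in Myog and Mymx cells (green triangles) and in all other cells (black crosses). The differentiation list has its median at 0.58 in members and 1.03 in other cells, and the G2 and M phase list at -0.30 in members and -0.28 in Myog and Mymx cells.

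Cell cycle genes were counted by phase. Of 29 S phase genes, 24 had more in KO members, 11 of them with an interval above 0. Of all 9193 measured genes 4660 had more, 1057 of them with an interval above 0. The median log2 ratio of the S phase list was 0.18, and none of its genes was past 2-fold in either direction. Of 42 G2 and M phase genes, 39 had less in KO, 25 of them with an interval below 0. Of all 9193 measured genes 4533 had less, 1111 of them with an interval below 0. The median of the G2 and M list was -0.30, again with none past 2-fold. Hmgb2, a chromatin protein abundant in dividing cells, had 1953 and 1230.3 CPM, a log2 ratio of -0.67 (-0.72 to -0.61), Cenpa, the centromeric histone, 275 and 195.0 CPM, and Nusap1, a spindle protein, 172.2 and 112.6 CPM. Mki67 was at 273 and 282 CPM in WT and KO, with an interval of the ratio that held 0, but it was found in 87.1% of WT members and in 66.3% of the less deeply covered KO members. The G2 and M list had a median of -0.28 in the Myog and Mymx cells and of -0.04 in all other cells.

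Signalling genes past 2-fold are named below, and over all genes of the members 1.29% were 2-fold or more higher in KO and 1.63% lower. Of 23 Notch genes, 14 were measured with a median of -0.19 and none past 2-fold. The Notch target Hey1 had 36.0 and 23.0 CPM, a log2 ratio of -0.65 (-1.04 to -0.25), and Hes1 129.0 and 106.4 CPM, a log2 ratio of -0.28 (-0.47 to -0.08), while Hes6, which counteracts Hes1, had 66.2 and 99.1 CPM, a log2 ratio of 0.58 (0.34 to 0.83). Lfng, which modifies Notch receptors, stood out against other cells, 2.72 in WT and 3.07 in KO on the log2 scale, and had 12.7 and 15.9 CPM. Of 24 Wnt genes, 17 were measured with a median of -0.24, and 13 had less in KO, 6 of them with an interval below 0. Of all 9193 measured genes 4533 had less, 1111 of them with an interval below 0. The transcription factor gene Tcf7l2 had 188.0 CPM in WT and 103.1 CPM in KO, a log2 ratio of -0.87 (-1.04 to -0.69), and the receptor gene Fzd1, the one past 2-fold, 22.3 and 10.9 CPM. In other cells the log2 ratio of Tcf7l2 was -0.51 and that of Fzd1 -0.10.

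In the Hedgehog list 8 of 11 genes were measured with a median of 0.27. Ptch1, receptor and target of the pathway and the one past 2-fold, had 48.0 and 96.9 CPM, a log2 ratio of 1.01 (0.74 to 1.29), against 0.50 in other cells, whereas the target Gli1 had 10.6 and 14.3 CPM with an interval that held 0. Of 25 BMP and TGF-β genes, 24 were measured with a median of 0.12. The BMP target Id1 had 128.3 and 211.1 CPM, a log2 ratio of 0.72 (0.55 to 0.89), and Id3 539 and 558 CPM. Past 2-fold were Id4, at 9.95 and 20.6 CPM, Smad6, an inhibitory SMAD, at 9.95 and 4.95 CPM, and Mstn, which encodes myostatin, an inhibitor of muscle growth, at 9.26 and 4.56 CPM. In the FGF list 10 of 15 genes were measured with a median of -0.11 and none past 2-fold. Fgfr4 was 3.88 in WT and 3.45 in KO above other cells on the log2 scale, at 15.1 and 20.02 CPM, and Fgf5 3.099 and 2.73 above them. All 9 IGF genes were measured, with a median of -0.10, and 8 had less in KO, 2 of them with an interval below 0. Of all 9193 genes 4533 had less, 1111 of them with an interval below 0. The most abundant IGF genes were H19 at 933 and 853 CPM and Igfbp5 at 698 and 582 CPM.

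The early response genes had a median of 0.18 over 13 of 20 genes, with Hspa1a and Klf4 past 2-fold higher (1.29% of all genes were) at 2.74 and 8.32 CPM and at 3.43 and 8.32 CPM. That median turned to -0.27 without members holding markers of other types and to -0.20 after thinning to 2000 UMIs. The hypoxia and glycolysis genes had a median of 0.06 over 19 of 20. In the latter list Eno1 stood apart, at 409 and 212.2 CPM in WT and KO, a log2 ratio of -0.94 (-1.07 to -0.82) that was -0.92 in other cells. Of 25 matrix genes, 24 were measured with a median of 0.06. Postn, encoding periostin, had 154.0 and 48.9 CPM, a log2 ratio of -1.65 (-1.88 to -1.43), and one of -1.04 in other cells, whereas Vcan, encoding versican, had 287 and 462 CPM, a log2 ratio of 0.69 (0.57 to 0.80). Lama4, at 5.83 and 15.3 CPM, and Col6a3, at 6.86 and 17.6 CPM, were past 2-fold higher and Postn lower, where all genes gave 1.29% and 1.63%.

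The Hox genes, which give each level of the trunk its code, differed in single genes of both directions. Of 39 listed genes, 25 were measured, with a median of -0.06, 3 past 2-fold higher in KO (Hoxc10, Hoxd9 and Hoxd13) and 4 past 2-fold lower (Hoxa5, Hoxb5, Hoxa7 and Hoxc8), where all genes of the members gave 1.29% and 1.63%. The median came to -0.77 after thinning every cell to 2000 UMIs. Summed over its 3 genes, paralog group 8 had 508 CPM (483 to 535) in WT members and 239 CPM (225.5 to 253) in KO members, and group 7 had 252 and 114.7 CPM, log2 ratios of -1.09 (-1.20 to -0.98) and -1.14 (-1.30 to -0.98). Group 9 was close, at 125.2 and 147.0 CPM. Group 10 went the other way, with in WT 67.9 CPM (58.8 to 78.1) and in KO 148.6 CPM (138.2 to 159.7), a log2 ratio of 1.13 (0.90 to 1.36).

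Most of the sums of groups 7 and 8 was 1 gene each, and Hoxb7, Hoxb8 and Hoxd8 had log2 ratios of -0.31, -0.26 and -0.003 with intervals that held 0. Hoxc8, at chr15:102990607-102994111 on the plus strand, had 483 CPM in WT (458 to 509) and 216.4 CPM in KO (203.8 to 229.6), with a UMI in 93.5% and 75.2% of the members and a cell median of 8 and 2 UMIs. Hoxa7, at chr6:52214491-52221854 on the minus strand, had 233.9 and 100.1 CPM. Hoxc10, at chr15:102966796-102971893 on the plus strand in the same cluster as Hoxc8, had 36.4 CPM in WT and 97.9 CPM in KO, a log2 ratio of 1.43 (1.12 to 1.75) that came to 2.48 without members holding markers of other types, where that of Hoxa7 came to -0.43, and Hoxa10 had 20.9 and 37.7 CPM, one of 0.85 (0.42 to 1.29). Hoxc8 was lower in KO in each of the 5 classes, with log2 ratios from -2.35 to -0.56, and Hoxc10 higher in each, from 0.88 to 2.19.

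The lower levels of groups 7 and 8 were also seen in the Myog and Mymx cells and not in all other cells, whereas group 10 was higher in KO in all 3 populations. Group 8 had 281 CPM in WT and 151.4 CPM in KO in the Myog and Mymx cells, but 209.3 and 205.5 CPM in all other cells, and group 7 137.5 and 80.5 CPM against 111.2 and 132.5 CPM. Group 10 stood at 69.0 and 82.9 CPM in the Myog and Mymx cells, a log2 ratio of 0.27 (0.07 to 0.47), and at 113.3 and 148.5 CPM in other cells, one of 0.39 (0.36 to 0.42). The level of the trunk at which each dissection ended was not recorded in the labels, and its part in these values was not tested.

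**Figure D4:**
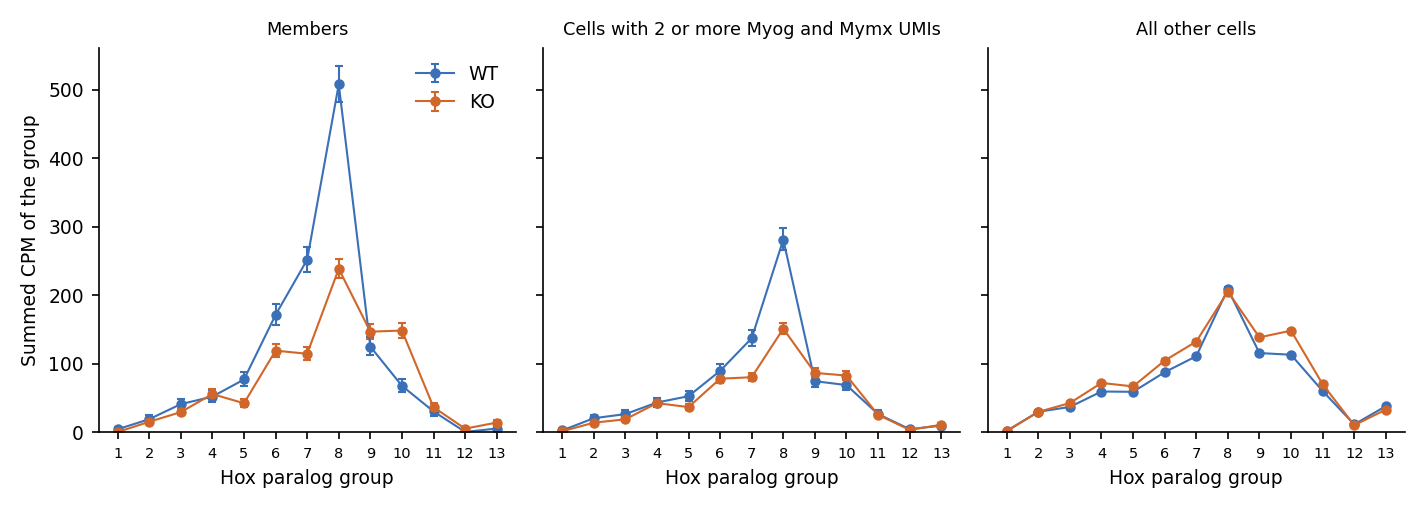
Summed CPM of the genes of each Hox paralog group in WT (blue) and KO (orange), in members, in cells with 2 or more Myog and Mymx UMIs and in all other cells, with exact Poisson 95% intervals. In members group 8 reaches 508 CPM in WT and 239 CPM in KO, and group 10 is higher in KO, whereas the 2 lines nearly meet at group 8 in the other cells.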

How the data were processed

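The deposited files hold UMI counts per gene and barcode, unfiltered and not normalized, which the authors made with Cell Ranger 3.1.0 on mm10/GRCm38 as the submitters' processing notes and methods state. No cell calls or annotation were used. Barcodes with 2000 or more UMIs and under 10% mitochondrial UMIs were taken as cells, doublets were kept, and the counts of the members were summed per library. The members and gene lists were chosen with earlier results of these data known. Genes with 50 or more UMIs over both libraries were called measured, and 2-fold was the limit for a call. The text names the 15 genes with the largest smaller log2 ratio of members over other cells (100 or more UMIs in each library), the 10 largest differences between genotypes in each direction (a UMI in 5% of the members of a library), and genes of the lists. Intervals (95%) were exact Poisson, exact binomial and, for ratios, exact conditional binomial, and a count of 0 was set at 3 UMIs. Only the ratio intervals were run on simulated counts, which were drawn from the Poisson model that they assume. That run checked the code and left out differences between cells. Python 3.11.15 with numpy 2.4.6, scipy 1.17.1, pandas 2.3.3 and matplotlib 3.10.9 was used, and edgeR 4.0.16 in R 4.3.3 gave TMM factors as an alternative scaling. Other alternatives changed the depth, mitochondrial and rule thresholds, thinned the cells, subtracted free RNA or left cells out. The level of 1 listed gene is not reported here.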

Additional observations from a re-analysis of the deposited data

Results flagged for a closer look

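Of 402 named genes, 323 were measured, and 9 had a log2 ratio of KO over WT in the members of the opposite sign to that in other cells of the same libraries, both at least 0.5 in size with intervals on opposite sides of 0. With 1 library per genotype, none of these differences was tested. Each gene was compared with 2 groups of cells. The same count was not made over all genes, so the 9 has no share to stand beside. Cck and Crym were named for the size of their ratio in members, on 3 and 5 UMIs in WT. Against the Myog and Mymx cells, Msc had 1.23 in members and -0.91 in those cells, Crym 2.41 and -0.89, Six2 1.46 and -1.21, and Eya2 1.02 and -0.61. Pfkp, which encodes a phosphofructokinase, had -0.72 in members and 1.49 in the Myog and Mymx cells, and Tnc, which encodes tenascin C, -0.55 and 0.83. Against all other cells, Cck had 3.43 in members and -1.20 in the others, Dmrt2 -1.08 and 0.79, and Cdh4 -1.13 and 0.97. Those others include the Myog and Mymx cells, a larger share of the KO library. Within the Myog and Mymx cells Cck had 0.62, Dmrt2 -0.30 and Cdh4 -0.08, and the part of this mix was not tested.

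Barcodes with at least 1000 but under 2000 UMIs entered only the alternative with a floor of 1000 UMIs. Of these, 7 of 2165 in KO met the rest of the rule (0.323%), against 0 of 2283 in WT, which allows a share of up to 0.131%.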

How the results depend on the processing

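No paired analysis was possible because there was 1 library per genotype and no test, and for the same reason no library could be left out. Over all settings 1488 values stayed within their counting interval (for lists, the median interval of their genes; for counts of genes, within 1.5 times), 315 moved by more and 15 reversed. The causes were not tested. The ratio of KO over WT ranged from 0.59 to 1.92 for Msc, 0.46 to 1.02 for Pdgfa, 1.33 to 2.06 for Vgll2, 0.85 to 1.78 for Itga4, -1.47 to -1.05 for Hoxc8 and 1.36 to 2.48 for Hoxc10 (all ratios are log2). Sums over few cells carry the class ratios, which below are those of Pax7 and Myf5 over Myod1 without Pax7.

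The log2 ratio of the members' share became 1.95 when cells were thinned to 5000 UMIs before the rule, with less deep cells left out. It stayed within its interval when they were thinned to 2000 UMIs before the rule. Genes 2-fold lower in KO numbered 76 with mitochondrial UMIs under 5%, 92 with 3 or more rule UMIs, 58 without members holding markers of other types and 97 without members holding sclerotome UMIs. Genes 2-fold higher and lower numbered 304 and 362 at 20 or more UMIs, 19 and 41 at 200 or more, 775 and 891 with no filter, and 16 and 35 after thinning to 2000 UMIs. The number of measured genes changed with each of these settings, so the counts are out of different totals.

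List medians of KO over WT moved as follows. The differentiation list gave 0.38 with mitochondrial UMIs under 5%, 0.44 after thinning to 2000 UMIs, 1.54 as a mean over single cells and 0.38 without sclerotome UMIs. Without markers of other types the muscle regulators gave 0.54, the G2 and M list -0.50 and the early response list -0.27, and there Pax3 reversed to 0.41 and En1 to 0.66. After thinning to 2000 UMIs the Wnt list gave -0.73, the Hox list -0.77 and the early response list -0.20. En1 reversed to 0.0219 as a mean over single cells, and Mt1 to 1.56 without white blood or globin UMIs.

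For the medians of members over other cells, the surface list in WT gave 0.96 with mitochondrial UMIs under 5%, 1.47 with 3 rule UMIs, 1.36 with Myog and Mymx at 0, 0.16 without other types, 2.05 after thinning to 2000 UMIs, 1.05 as a mean over cells, 0.23 at 200 UMIs, 1.37 without sclerotome UMIs and 1.42 with 2 of the 3 rule genes. In KO it gave 0.96 with 3 rule UMIs, 0.83 with Myog and Mymx at 0, 2.49 after thinning to 2000 UMIs, 0.82 with no filter, 0.94 without sclerotome UMIs and 1.00 with 2 rule genes, and reversed to -0.26 without other types and -0.0696 at 200 UMIs. The regulators gave 2.11 in WT and 1.61 in KO after thinning to 2000 UMIs, 1.66 and 1.34 at 200 UMIs, and in KO 1.29 with mitochondrial UMIs under 5% and 1.43 without other types. The differentiation list in WT gave 0.62 with mitochondrial UMIs under 5%, 0.36 with 3 rule UMIs, 0.98 after thinning to 2000 UMIs, 0.42 as a mean over cells, 0.53 at 200 UMIs, 0.54 without sclerotome UMIs and 0.46 with 2 rule genes. In KO it gave -0.18 at a floor of 5000 UMIs, -1.003 with no filter and -0.26 without sclerotome UMIs, and reversed to 0.000337 with mitochondrial UMIs under 5%, 0.38 with 3 rule UMIs, 0.30 with Myog and Mymx at 0, 0.56 without other types, 0.70 after thinning to 2000 UMIs, 0.36 as a mean over cells, 0.54 at 200 UMIs and 0.33 with 2 rule genes.

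The class ratios in KO with mitochondrial UMIs under 5% were 2.78 for Msc, 2.16 for Pdgfa and 1.27 for En1. Without other types they were -0.61 for En1 in WT, and 0.33 for Pdgfa and 1.94 for Pax3 in KO. Without KO cells holding a Pdgfrb UMI, Pax3 had 0.97 in KO. After thinning to 2000 UMIs they were 1.38 for Pdgfa, -3.265 for Pax3 and -0.62 for En1 in WT, and 0.86 for Pax3 in KO. Without sclerotome UMIs En1 had -1.17 in WT and Pax3 0.66 in KO, and with 2 rule genes Msc had 0.62 and Pdgfa reversed to -0.0563 in KO.

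The settings that left out sclerotome or white blood and globin UMIs, and that asked for 2 of the 3 rule genes, were chosen after seeing the data. After thinning to 2000 UMIs, Uty, Kdm5d, Acan and Tex15 gave no informative bound.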
